A study of Mus musculus with 10 samples.

Results

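Rhag, Rhd, Kel, Icam4, Ermap, Aqp1, Cldn13, Gypc and Xk encode proteins of the red cell surface: the Rh complex, carriers of blood-group antigens, and a claudin of rodent blood-forming cells. They were taken as a fixed list of 9 gene symbols, and every probe set whose platform annotation gives only that symbol was used. All 9 genes, of 18193 with a probe set of their own, were found, through 10 of the 45037 probe sets on the array, since Xk has 2, and none was shared with another gene. RNA was measured on 1 array for each of 10 individual mouse fetal livers at embryonic day 14.5. Of these, 5 came from wild type fetuses and 5 from Zfp36l2 knockout fetuses, both on a mixed b6 and 129 background, and the labels name no treatment. Zfp36l2 encodes a protein of the tristetraprolin family that binds AU-rich elements and speeds mRNA decay. How the knockout allele was made is not given in the sources used here. The question is how RNA levels of the liver change when this protein is missing.

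The fetal liver at this age is the main site of red cell production, and erythroblasts make up much of it. In the red cell membrane Rh proteins and the Rh-associated glycoprotein form a core complex that is joined by band 3, CD47 and ICAM4. The Kell glycoprotein is held to the XK protein by a disulfide bond, and glycophorin C ties the membrane to its skeleton through protein 4.1. Many carriers of blood-group antigens accumulate as erythroblasts mature, under the erythroid factors GATA1 and KLF1.

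The 250 bases before the start of each gene are shown for the 5 members whose representative probe set, the brightest of the gene, had an unadjusted p under 0.05 in the comparison, because GATA1 and KLF1 act on many erythroid promoters. They come from RefSeq (GRCm38.p6), read 5′ to 3′ on the strand of the gene. Capitals mark matches, on either strand, to the GATA motifs AGATAA or TGATAA or AGATAG or TGATAG, and to CCNCNCCC, the core of KLF sites. Icam4 lies at chr9:21029182-21029431 on the plus strand, Rhd at chr4:134864286-134864535 on the plus strand, Kel at chr6:41704326-41704575 on the minus strand, Ermap at chr4:119189996-119190245 on the minus strand, and Aqp1 at chr6:55336049-55336298 on the plus strand.
Icam4: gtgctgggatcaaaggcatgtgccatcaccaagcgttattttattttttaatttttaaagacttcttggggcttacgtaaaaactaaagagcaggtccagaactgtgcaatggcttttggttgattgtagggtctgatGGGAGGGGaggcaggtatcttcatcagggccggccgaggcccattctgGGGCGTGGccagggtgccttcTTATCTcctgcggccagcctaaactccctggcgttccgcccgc
Rhd: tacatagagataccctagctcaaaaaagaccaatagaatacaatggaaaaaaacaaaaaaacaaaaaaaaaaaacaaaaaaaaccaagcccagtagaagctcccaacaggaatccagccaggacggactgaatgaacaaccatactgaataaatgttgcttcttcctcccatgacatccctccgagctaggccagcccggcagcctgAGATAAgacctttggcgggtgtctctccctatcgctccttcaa
Kel: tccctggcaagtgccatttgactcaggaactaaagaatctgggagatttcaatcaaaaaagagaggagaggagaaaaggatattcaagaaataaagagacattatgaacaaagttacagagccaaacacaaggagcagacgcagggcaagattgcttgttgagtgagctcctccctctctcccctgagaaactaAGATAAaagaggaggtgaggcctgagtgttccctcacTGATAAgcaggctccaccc
Ermap: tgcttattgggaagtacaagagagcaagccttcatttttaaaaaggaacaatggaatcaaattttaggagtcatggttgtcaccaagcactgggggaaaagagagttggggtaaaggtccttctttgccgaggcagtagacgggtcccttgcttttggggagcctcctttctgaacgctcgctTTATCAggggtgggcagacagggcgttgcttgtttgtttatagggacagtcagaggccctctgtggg
Aqp1: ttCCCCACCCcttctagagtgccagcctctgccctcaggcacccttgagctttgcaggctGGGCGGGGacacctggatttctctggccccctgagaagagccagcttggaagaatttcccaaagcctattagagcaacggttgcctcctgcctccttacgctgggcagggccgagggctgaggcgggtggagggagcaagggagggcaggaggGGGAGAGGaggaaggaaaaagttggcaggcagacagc

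Among these windows, Icam4 held 1 GATA motif, at -43 to -38 from the gene start, and 2 CCNCNCCC matches. Rhd held 1 GATA motif at the same distance, -43 to -38. In Kel 2 GATA motifs lay at -56 to -51 and -19 to -14, and in Ermap 1 lay at -67 to -62. The Aqp1 window held no GATA motif and 3 CCNCNCCC matches. Of the 7 members whose window was scanned, 5 held a GATA motif, Rhag being the other, and 3 held CCNCNCCC, the third being Xk. Cldn13 and Gypc are not among these 7. Any member window on chromosome 18, where Gypc lies, was left out, and no such rule was applied to the windows of all genes. Of all 32851 windows of this length, 26.5% held a GATA motif and 45.9% held CCNCNCCC. The letters describe the windows and were not tested for binding.

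Array intensities are on a linear scale after quantile normalization, and differences are on the log2 scale after values under 16 were set to 16. On its brightest probe set, Zfp36l2 itself had a mean of 434 ± 91.0 (SD, n = 5) with the wild type label and 102 ± 11.3 with the knockout label, without overlap. In the table as a whole 21.5% of entries were 0 or negative, but none of the members' values lay at or under 16. Median intensity before normalization ran from 19.5 to 25.01 across arrays. Where means are given as a pair, wild type comes first. Each liver is a separate fetus, so the spread is between animals. In bulk tissue, fewer cells of a type and less RNA per cell cannot be told apart.

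Most of the members averaged lower in the knockout livers, and none passed the test over all probe sets. Of the 9 genes, 8 had a negative log2 difference, with a median of -0.18, beside 49.9% negative and a median of 0.00018 among all 12821 tested genes. The differences from Gypc to Icam4 lay between -8.90% and -19.2%, and that of Aqp1 was -43.8%. With limma, 0 of 9 genes were called at an adjusted p under 0.05, beside 0.328% of all tested genes in either direction and 0.172% lower. At an unadjusted p under 0.05, 5 of 9 were lower (Icam4, Rhd, Kel, Ermap and Aqp1), beside 5.44% of all genes lower. That count was 2 of 9 with median scaling, where the median of all tested genes was 0.06, and 2 of 9 with eBayes without the trend. In none of the 9 did every knockout liver lie below every wild type liver, beside 1.43% of all genes.

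**Figure D1:**
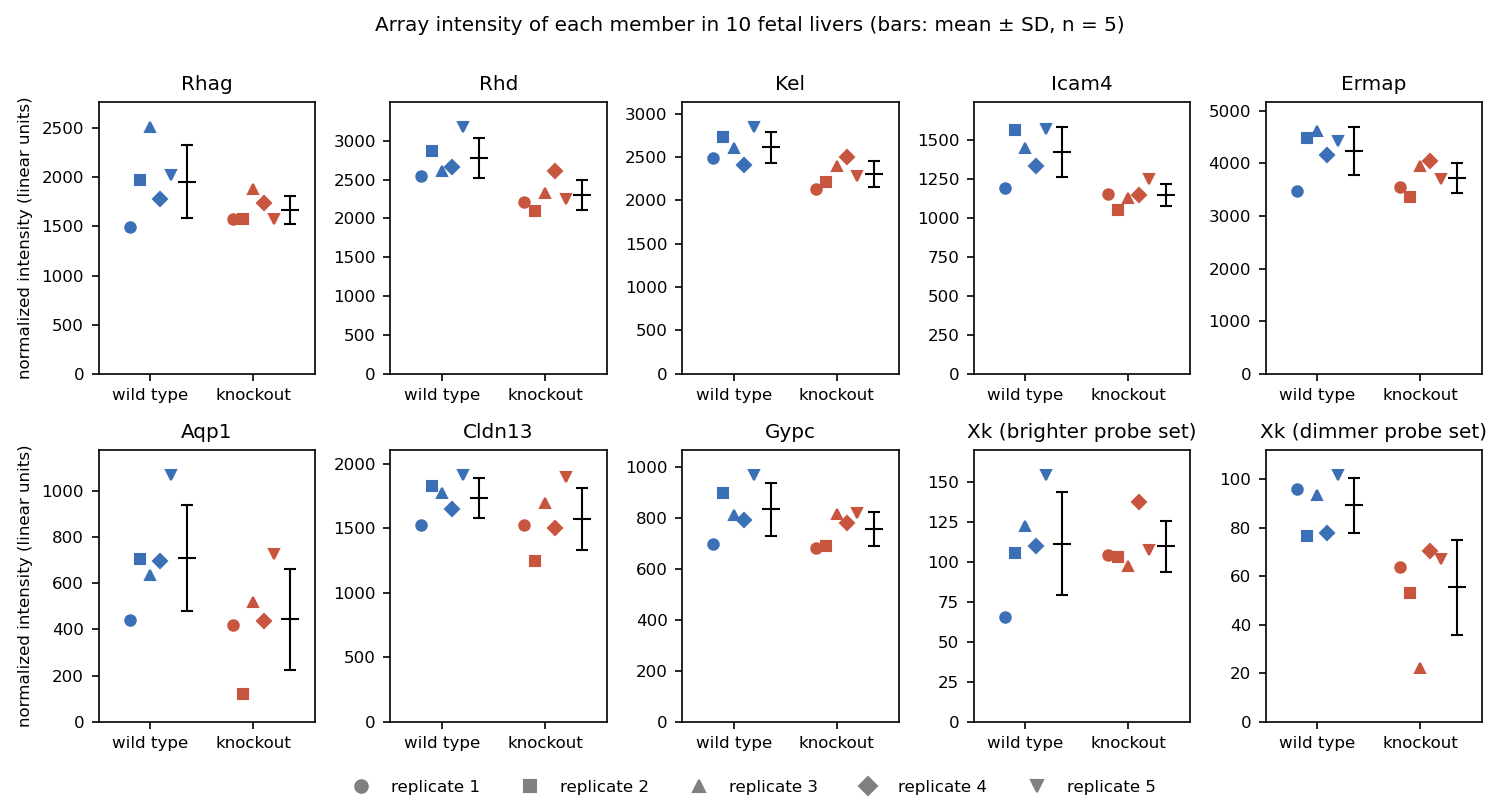
Normalized intensity of the 10 member probe sets in each liver, on linear axes from 0, with 1 point per liver shaped by replicate number and bars for the mean ± SD of 5 livers. Mean intensity is lower in knockout livers for all 10 probe sets, by little for the brighter Xk probe set (112 and 109.98), wild type replicate 1 is the lowest wild type liver for 8 of the 9 genes on their representative probe sets, and only the dimmer Xk probe set separates the genotypes fully.

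**Figure D2:**
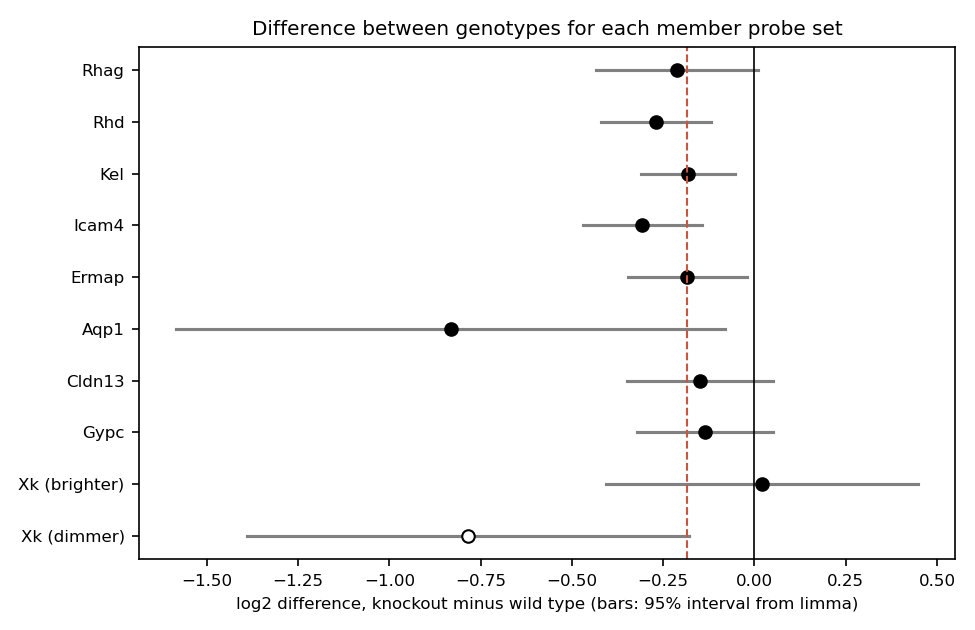
Log2 difference, knockout minus wild type, for each member probe set, with the 95% interval from limma; the dashed line is the median over the 9 genes (-0.18) and the open circle is the dimmer Xk probe set. The intervals of Rhd, Kel, Icam4, Ermap, Aqp1 and the dimmer Xk probe set lie below 0 before adjustment for the number of probe sets.

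Rhag and Rhd form the core of the Rh complex. Rhag encodes the Rh-associated glycoprotein, a channel for ammonia and a partner without which Rh proteins do not reach the membrane. In wild type replicates 1 to 5 its intensity was 1497, 1972, 2513, 1781 and 2019.9, and in knockout replicates 1 to 5 it was 1576, 1573, 1884, 1741 and 1573. The genotypes overlapped widely, wild type replicate 3 being high and wild type replicate 1 lower than any knockout liver. The log2 difference was -0.21 ± 0.10 (SE; 95% interval -0.44 to 0.01; limma adjusted p = 0.546, exact permutation p = 0.151). The difference was -0.12 without wild type replicate 3 (limma adjusted p = 0.767) and -0.30 without wild type replicate 1 (limma adjusted p = 0.209). Rhag lies on chromosome 17, as does Zfp36l2, with 210 of the 620 tested genes of that chromosome between them in the RefSeq gene order.

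Rhd encodes the mouse Rh polypeptide, which carries the Rh antigen in its human counterparts. Intensities were 2543, 2870.4, 2605, 2663 and 3177 in wild type replicates 1 to 5 and 2207, 2089.5, 2330.3, 2605 and 2254 in knockout replicates 1 to 5. Of the knockout livers, 4 lay below the lowest wild type liver, and replicate 4 reached into the wild type range. Means were 2772 ± 258 and 2297 ± 193 (SD, n = 5), a difference of -17.1%. On the log2 scale this was -0.27 ± 0.07 (SE; 95% interval -0.42 to -0.12; limma adjusted p = 0.145, exact permutation p = 0.0238, two-sided).

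Icam4 carries the LW blood group, joins the Rh complex, and binds integrins on macrophages at the erythroblastic island. It had the smallest p-value of the members' representative probe sets. Intensities were 1193, 1565, 1445, 1333 and 1571 in wild type replicates 1 to 5, against 1153, 1049.8, 1124, 1149 and 1249 in knockout replicates 1 to 5. Wild type replicate 1 was the lowest of its genotype and lay below knockout replicate 5, and the other 4 wild type livers lay above every knockout liver. Means were 1422 ± 161 and 1145 ± 71.4 (SD, n = 5), and the log2 difference was -0.31 ± 0.08 (SE; 95% interval -0.47 to -0.14; limma adjusted p = 0.117, exact permutation p = 0.0159). Without wild type replicate 1 it was -0.37, with a limma adjusted p of 0.0595. Over the 22 alternatives the adjusted p of Icam4 ran from 0.0595 to 0.444.

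Kel and Xk encode the partners of the Kell complex. Kel is a zinc endopeptidase that can process endothelins and carries the Kell antigens. Its intensities were 2489, 2733, 2602, 2403 and 2848 in wild type replicates 1 to 5 and 2128, 2216, 2392, 2499.9 and 2285 in knockout replicates 1 to 5. Here wild type replicate 4 was the lowest of its genotype, and only knockout replicate 4 exceeded it. The log2 difference was -0.18 ± 0.06 (SE; 95% interval -0.31 to -0.05; limma adjusted p = 0.287, exact permutation p = 0.0238), or -11.9%.

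Xk encodes the membrane partner of Kell, which carries the Kx antigen, and its 2 probe sets gave different pictures. The brighter read 65.5, 106, 122, 109.8 and 155 in wild type replicates 1 to 5 and 104, 103, 97.3, 138 and 107 in knockout replicates 1 to 5. Its genotypes overlapped throughout, at a log2 difference of 0.02 ± 0.20 (SE; 95% interval -0.41 to 0.45; limma adjusted p = 0.985). That interval is too wide to exclude a change of the size seen in the other members except Aqp1 (-0.83), which lies outside it. The sign turned without wild type replicate 1 (-0.16) or knockout replicate 4 (-0.06).

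The dimmer Xk probe set read 95.8, 76.7, 93.5, 77.9 and 102 in wild type replicates 1 to 5 and 63.8, 53.3, 22.3, 70.5 and 67.3 in knockout replicates 1 to 5. Every knockout liver lay below every wild type liver (exact permutation p = 0.00794, which is the minimum for groups of this size). The log2 difference was -0.78 ± 0.29 (SE; 95% interval -1.39 to -0.18), with a limma adjusted p of 0.344, and -0.48 without knockout replicate 3, the low liver. Which transcripts each probe set detects was not analysed here.

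Ermap, Gypc and Cldn13 encode further surface proteins. Ermap is a butyrophilin-like protein that carries the Scianna blood group. Its intensities were 3473, 4492, 4621, 4164 and 4433 in wild type replicates 1 to 5 and 3548, 3363, 3950.2, 4045 and 3695 in knockout replicates 1 to 5. As for Icam4, all wild type livers but replicate 1 lay above every knockout liver, and this held for no other member (2 of 9, where 2.54% of all genes did so). Since replicate 1 was set aside for the members' own low values, nothing is read from that count. The log2 difference was -0.18 ± 0.08 (SE, limma adjusted p = 0.432, exact permutation p = 0.0794). It was -0.10 with median scaling (limma adjusted p = 0.792), where the median of all tested genes was 0.06. Without wild type replicate 1 it was -0.25 (limma adjusted p = 0.123).

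Gypc, the carrier of the Gerbich antigens, read 698, 899, 814, 793 and 969.6 in wild type replicates 1 to 5 and 681, 691, 815, 781 and 822 in knockout replicates 1 to 5. Cldn13, a claudin, read 1521, 1822, 1769, 1647 and 1911 in wild type replicates 1 to 5 and 1522, 1248, 1693, 1504 and 1896 in knockout replicates 1 to 5. Both overlapped broadly between genotypes, and 4 of 5 knockout livers for Cldn13 and 5 of 5 for Gypc lay below the wild type mean. The log2 differences were -0.13 ± 0.09 for Gypc and -0.15 ± 0.09 for Cldn13 (SE; limma adjusted p = 0.667 and 0.649, exact permutation p = 0.222 and 0.230). The difference of Cldn13 was -0.07 without knockout replicate 2, its lowest liver, and -0.08 with median scaling in place of quantile normalization. That of Gypc was -0.08 without wild type replicate 5, its highest liver, and -0.05 with median scaling. Under that scaling the median difference of all tested genes was also higher, at 0.06.

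Aqp1, the water channel that carries the Colton antigens, had the largest mean difference of the representative probe sets and the widest spread. Intensities were 439, 704, 636, 695 and 1067 in wild type replicates 1 to 5 and 419, 119, 516, 437 and 724 in knockout replicates 1 to 5. Knockout replicate 2 stood far below the rest, and knockout replicate 5 lay above every wild type liver but replicate 5. Means were 708 ± 227 and 443 ± 218 (SD, n = 5), and the log2 difference was -0.83 ± 0.35 (SE; 95% interval -1.58 to -0.08; limma adjusted p = 0.446, exact permutation p = 0.103). Without knockout replicate 2 it was -0.41 (limma adjusted p = 0.616). Aqp1 is also made by endothelial and bile duct cells. The 8 tested endothelial markers had a median difference of 0.11, with 3 of 8 negative, 0 called, and 1 lower (Eng) and 2 higher (Stab2 and Cdh5) at an unadjusted limma p under 0.05. The brightest were Lyve1 (318 ± 24.1 and 352 ± 39.4) and Stab2 (213 ± 7.81 and 259.6 ± 33.0, SD, n = 5). Their liver scores ran from -0.12 to 0.08 in wild type and from -0.07 to 0.24 in knockout livers, highest in knockout replicate 2. Scores of the 4 tested bile duct markers ran from -0.19 to 0.16 in wild type and from -0.17 to 0.11 in knockout livers. Of the knockout livers, replicate 2 (-0.175) was lowest, close to replicate 3 (-0.166). All of these markers but Cdh1 lay near the floor: Sox9 (means 26.2 and 1.07), Epcam (17.1 and 29.3) and Krt7 (15.5 and 14.8). The score thus says little about bile duct cells. The part of both cell types in the Aqp1 difference was not tested.

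Single livers set much of the spread, and they did so for many members together. Wild type replicate 1 was the lowest wild type liver for 8 of 9 genes, Kel being the exception. Wild type replicate 5 was the highest of all 10 livers for 7 genes, and wild type replicate 3 was the highest for Rhag and Ermap. Knockout replicate 2 was the lowest of all 10 for Rhd, Icam4, Ermap, Aqp1 and Cldn13. A liver's score, meaning the median, over the 9 genes, of how far its log2 level stood from each gene's average, was -0.18, 0.18, 0.18, 0.02 and 0.29 in wild type replicates 1 to 5. It was -0.18, -0.23, -0.0019, -0.02 and -0.03 in knockout replicates 1 to 5. The scores of wild type replicate 1 and knockout replicate 1 were thus alike, and the other 4 wild type livers lay above every knockout liver. Without wild type replicate 1 the median difference over the members was -0.25, all 9 genes were negative and 0 were called. That liver was singled out by the members' own values, so these values are a description.

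**Figure D3:**
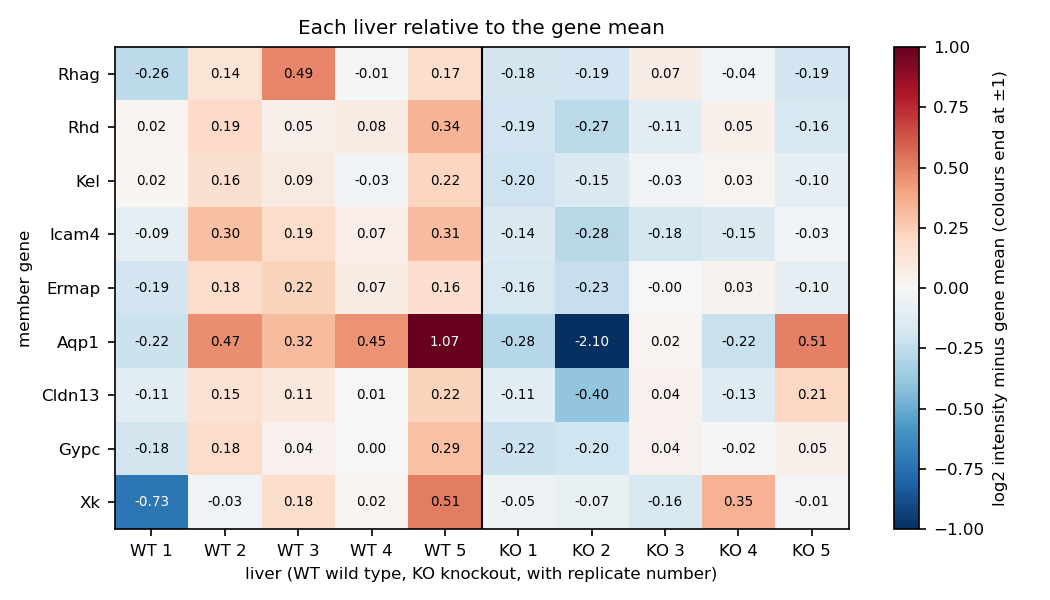
Log2 intensity of each member gene in each liver minus the gene's mean over 10 livers, wild type (WT) left and knockout (KO) right of the line, with colours ending at ±1. Wild type replicate 1 is below the gene mean for 7 of the 9 genes, wild type replicate 5 is above it for all 9, and Aqp1 is lowest in knockout replicate 2.

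The genes whose deviations from their genotype means followed the members' mean profile most closely over the 10 livers were Chpt1, Flii, Zfp672, Smc2 and Itga4, with Pearson r from 0.98 down to 0.95 among 12812 genes ranked. The profile is a mean of log2 deviations without scaling, so Aqp1, the member with the widest spread, weighs most in it. How closely these genes followed the other members was not tested. These r values describe the highest of many genes and carry no p. None of these 5 was called between genotypes, and Chpt1 had a positive difference of 0.21 ± 0.30 (SE).

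In the list of partners of the Rh complex and of the skeleton that anchors it, most genes lay in the same direction, but band 3 did not. Of 9 tested genes 8 were negative, with a median log2 difference of -0.15. With limma 0 were called, and 4 were lower at an unadjusted p under 0.05 (Ank1, Epb42, Tmod1 and Sptb). Slc4a1, which encodes band 3, averaged 7929 ± 1103 and 7896 ± 753, and Cd47, the marker of self that joins the complex, 2844 ± 256 and 2654 ± 160.0 (SD, n = 5). Genes of the other blood-group carriers were mixed: 13 of 20 were negative, with a median of -0.07, 0 called, 3 lower and 2 higher at an unadjusted p under 0.05. Bsg, the basigin of the Ok blood group, averaged 2579.9 ± 213 and 2487 ± 94.2, and Abcg2, the transporter of the Junior blood group, 2052 ± 57.1 and 2059.6 ± 48.8 (SD, n = 5). Cd44, which carries the Indian antigens and was picked after its values were seen, had the smallest p of that list and lay the other way, at 0.41 ± 0.09 (SE; limma adjusted p = 0.0675).

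Relatives of the members from the same gene families leaned the other way. Of 13 tested, 4 were negative, with a median of 0.17 and 0 called by limma, beside 49.9% negative among all tested genes. At an unadjusted p under 0.05, 1 was higher (Icam1, 64.0 ± 24.2 and 110 ± 5.87, SD, n = 5). Many of these genes were dim, down to wild type means of 23.8 for Btn1a1, 19.6 for Icam5 and 9.67 for Cldn3, so the lean rests partly on values near the floor. Cldn1, a claudin of tight junctions, averaged 571 ± 95.3 and 640.3 ± 98.8, while Aqp11 averaged 121 ± 15.0 and 119 ± 22.8 (SD, n = 5). Of 4 tested enzymes that build blood-group sugars, 1 was negative, with 0 called by limma and 0 at an unadjusted p under 0.05. Both that were named by the rule were dim, Gcnt2 at 41.9 ± 26.7 and 53.7 ± 16.03 and B3galnt1 at 67.3 ± 29.1 and 75.1 ± 18.8.

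Erythroid genes outside the list are set beside the members because the members are made in erythroblasts. All 9 tested erythroid regulators were negative, with a median log2 difference of -0.18, the same as that of the members to 2 decimals. With limma 0 were called and 5 were lower at an unadjusted p under 0.05. Klf1 averaged 4343 ± 320.5 and 3868 ± 155, and Lmo2 2783 ± 106 and 2448 ± 107 (SD, n = 5). Scores of the regulators ran from 0.03 to 0.18 in wild type and from -0.17 to -0.02 in knockout livers, without overlap. Which cells of the liver the RNA of the regulators came from was not tested. Late erythroblast markers had 7 of 8 negative and a median of -0.12, with Slc25a37 at 7794 ± 738 and 7936 ± 339 and Fech at 6091 ± 724 and 5579.7 ± 284. Early erythroid and progenitor markers had 6 of 8 negative and a median of -0.18, with Tfrc at 7764 ± 742 and 7423 ± 379 and Epor at 1209.6 ± 67.9 and 906 ± 200.2. The erythroid markers of the tissue check, bright throughout, had 5 of 8 negative and a median of -0.11, with Hbb-y at 10748 ± 4061 and 10965 ± 3821. Limma called 0 genes of these 3 marker lists, and at an unadjusted p under 0.05 the late, early and tissue-check lists had 3, 2 and 2 lower and 0 higher. The lists share genes, so these counts are not separate. Both genes of the tissue-check list under that p, Epb42 and Alas2, were also counted in the late list. Slc25a37, Tfrc and Slc4a1, none of them under that p, were shared between lists too. Epor was counted among the early markers and the regulators, and Epb42 also among the partners of the Rh complex. The part of erythroid cell number in the members' differences was not tested.

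Markers of other blood and liver cells are given for comparison. All 7 megakaryocyte markers were negative, with a median of -1.11, and all 7 were lower at an unadjusted p under 0.05, 4 of them called. Their liver scores ran from 0.26 to 0.80 in wild type and from -0.98 to -0.07 in knockout livers, without overlap. Limma called Pf4 (-1.39), Ppbp (-1.38), Itga2b (-0.83) and Itgb3 (-1.11) at adjusted p = 0.000107, 0.000146, 0.0359 and 0.0378. Macrophage markers were all 8 positive with a median of 0.40, 0 called by limma and 4 higher at an unadjusted p under 0.05 (C1qa, C1qb, C1qc and Csf1r). The brightest were Cd5l (876 ± 393 and 1156 ± 216) and Vcam1 (886 ± 91.7 and 957 ± 117), neither of which was under that p. Macrophage scores ran from -0.45 to 0.09 in wild type and from 0.10 to 0.33 in knockout livers. Hepatocyte markers had 3 of 6 negative and a median of -0.0029, 0 called by limma and 1 higher at an unadjusted p under 0.05. The brightest were Afp at 16358 ± 247 and 16287 ± 366 and Alb at 15407 ± 349 and 15063 ± 949. Bile duct markers had 2 of 4 negative, a median of 0.12, 0 called, and 1 lower and 1 higher at an unadjusted p under 0.05. The brightest were Cdh1 at 534 ± 34.2 and 673 ± 90.4 and Epcam, near the floor, at 17.1 ± 13.6 and 29.3 ± 11.5. Y-linked genes, which differ with the sex of a fetus, had 0 of 3 negative, a median of 0.36, 0 called by limma and 0 at an unadjusted p under 0.05, with Eif2s3y at 158 ± 202 and 272 ± 264 and Uty at 42.1 ± 30.8 and 47.7 ± 18.5. With their level as a covariate the members' median difference was -0.19, with 0 called.

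**Figure D4:**
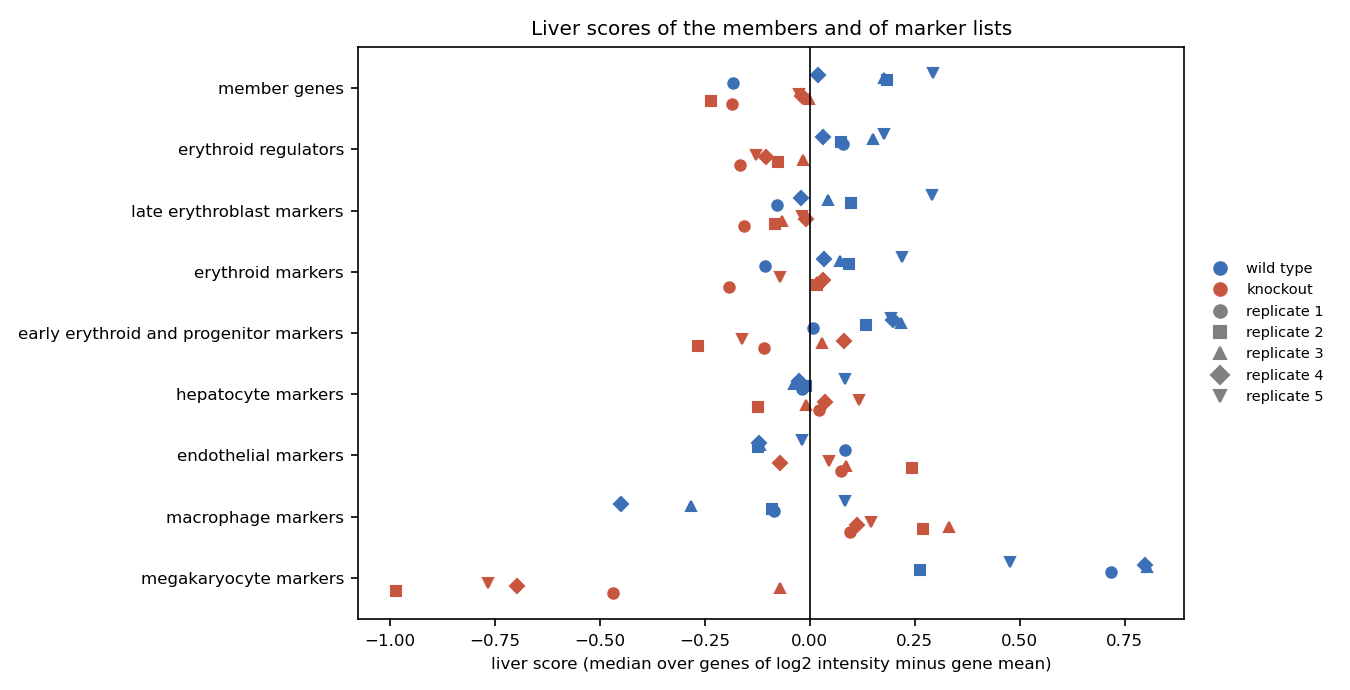
Liver scores, the median over each list's genes of log2 intensity minus the gene's mean, for the 9 members and 8 marker lists, with 1 point per liver coloured by genotype and shaped by replicate number. Wild type replicate 1 is low for the members (-0.18) and the erythroid markers (-0.11) but not for the erythroid regulators (0.08), whose genotypes do not overlap.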

How the data were processed

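Gene expression was measured on 1 array for each of 5 wild type and 5 Zfp36l2 knockout livers. The authors deposited 1 linear intensity per probe set, with negative values among them, from 1 µg of total RNA labelled as biotin-cRNA with an Affymetrix one-cycle kit per the labels' protocols. The software and array scaling used for this are not stated in any source used here. Values were quantile-normalized, set to at least 16 and log2-transformed. Probe sets with a mean log2 under the 40th percentile were dropped, leaving 27022 that include all 10 of the members. An earlier account of these data used the lowest positive value as the floor, which turns dim values into extreme log2 values and is kept as an alternative. Genotype was the only term in limma 3.58.1 (R 4.3.3, lmFit, eBayes with trend, two-sided). P-values were adjusted by Benjamini and Hochberg's method across the 27022 probe sets, and 0.05 was the threshold. Each gene stands for itself through its brightest probe set. For single members the mean log2 was also put through an exact permutation test, two-sided. Precision is set by the number of livers.

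The members and the 14 gene lists were chosen with earlier results of these data known. The genes named are the members, Zfp36l2, the called genes of each list up to 4 or otherwise its 2 brightest, and the 5 genes closest to the members' profile. The method was tested on simulated data, with independent noise and differences planted in bright probe sets. Those differences were larger than that of any member but Aqp1, so the simulation does not show whether differences of the members' size would be called. Alternatives covered floor, normalization, filter, variance model, replicate block, a Y-linked covariate and each liver left out. Plots used matplotlib 3.10.9 and Python 3.11.15.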

Additional observations from a re-analysis of the deposited data

Results flagged for a closer look

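Of 50 groups of 5 livers examined with Dixon's ratio, 3 held a liver apart from the rest, where chance gives about 1 in 20, or 2.5. The brighter Xk probe set was high in knockout replicate 4 (log2 7.107, nearest 6.746). The dimmer Xk probe set was low in knockout replicate 3 (log2 4.48, nearest 5.736), at an intensity of 22.3. The hepatocyte marker score was high in wild type replicate 5 (0.08422, nearest -0.0097).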

How the results depend on the processing

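No member was called by limma under any of the 22 alternatives, and between 2 and 7 of 9 had an unadjusted p under 0.05 where that was counted. That number was 5 with all livers, 2 with median scaling or with eBayes without the trend, 7 without wild type replicate 1, and 3 without wild type replicate 2, wild type replicate 5 or knockout replicate 2, without a filter or with a floor of 32. The 8 genes other than Xk were negative under every alternative, and the median over the members ran from -0.25 to -0.12. Xk turned negative as the median of its probe sets (-0.38), and its brighter probe set ran from -0.16 to 0.15 with single livers left out. The number of probe sets called over the whole array was 57, and 11 with the lowest positive value as the floor, 12 with a floor of 32, 94 with median scaling, 4 without a filter, 9 without the trend, 101 with robust eBayes and 26 with the Y-linked covariate. Median scaling shifted the median of all genes by 0.06, and 35.1% of called genes were then lower, against 52.4%. With the replicate number as a block 179 were called and still 0 members. Same-numbered livers of the 2 genotypes had correlations of deviations from 0.03 to 0.13, over 0.1 for 1 of 5 numbers. Livers with different numbers were not compared in this way, so these values do not decide whether the numbers mark pairs. The main fit did not take them as pairs. Leaving out single livers gave 13 to 168 called probe sets: 24, 30, 16, 13 and 168 without wild type replicates 1 to 5, and 29, 34, 33, 15 and 20 without knockout replicates 1 to 5. The cause of these shifts was not tested.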
